A study of Macaca fascicularis with 48 samples.

Results

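The 10 genes described here belong to the circadian clock and its output: ARNTL (also called BMAL1), PER1, PER2, PER3, CRY1, CRY2, NR1D1, NR1D2, DBP and TEF. They were chosen by name, with earlier results of these data known, and all 10 were found among the 16842 gene names in the deposited count table. All 10 passed the filter on low counts in every comparison. The study gave GS-8873, named in its design text as an inhibitor of hepatitis B virus messenger RNA, to cynomolgus monkeys (Macaca fascicularis) by oral gavage for 13 weeks. The treated group received 6 mg/kg/day and the control group 0 mg/kg/day. RNA was sequenced at the end of dosing from liver, from spinal cord at 3 levels (cervical, thoracic and lumbar) and from dorsal root ganglia at 2 levels (cervical and lumbar), with 4 treated and 4 control libraries in each of the 6 tissues. No allele or transgene is named in the labels. The design text counts 4 treated animals, while the animal labels name 6: treated animals 1 to 4 gave liver and cord, animals 1, 2, 4 and 6 gave cervical ganglia, and animals 2, 3, 5 and 6 gave lumbar ganglia. Control animals 1 to 4 gave all 6 tissues. Of the 10 animals, 5 were male and 5 female by label. Age is not given in the labels used here, and neither is the time of day of tissue collection, on which transcript levels of these genes depend, so each value is 1 time point of an unstated phase.

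The clock is a feedback loop of transcription and translation present in most mammalian cells. ARNTL pairs with CLOCK or with NPAS2, and the pair activates genes that carry an E-box. Among those genes are PER and CRY, whose proteins return to the nucleus and repress the ARNTL pair, and NR1D1 and NR1D2 (REV-ERB alpha and beta), which repress ARNTL. DBP and TEF, transcription factors of the PAR bZIP family, carry the rhythm to output genes; in liver, these include genes of drug and bile acid metabolism. ARNTL and its E-box targets peak at roughly opposite phases of the day in rodent tissues. Clocks of peripheral organs are set by feeding and by glucocorticoids as well as by the brain.

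Library totals ran from 35453786 to 53480762 counts, and the counts of the 10 genes summed over 48 libraries ran from 25697 for DBP to 283383 for NR1D2. The lowest count of any of them in a library was 182, for DBP in cervical ganglia. NR1D1 had as few as 244 counts in liver. Counting error was of the size of the spread between control animals for both genes in these tissues. Levels below are in CPM, the usual unit of a gene's count relative to its library, scaled by the trimmed mean of M values (TMM) over all 48 libraries, and levels per kilobase divide these by the exon length in the table. The liver libraries held hepatocyte markers (7 of 7 listed genes in the file) at a summed 176973 to 187359 CPM in treated animals and 196069 to 222354 CPM in controls. Of the 24 cord libraries, the lumbar ones of treated animal 1 and control animal 1 lacked the central myelin gene MOG, at 0.0870 and 0.258 CPM, while every other cord library held at least 330 CPM, so the label of spinal cord was not borne out for those 2. In the same 2 libraries astrocyte markers (5 of 6 listed genes in the file) summed to 99.0 CPM in the treated and 94.9 CPM in the control animal. The summed sensory neuron markers (5 of 6 listed genes in the file) of the cervical ganglia were 656 CPM in treated animal 4, against 1654 to 2525 CPM in the other 7 libraries. Treated animal 4 also had the highest share of mitochondrial counts in cervical cord, lumbar cord and cervical ganglia, at 25.7%, 27.04% and 23.006%. These values are given again beside the results they touch, and in such bulk tissue fewer cells of a type and less RNA per cell cannot be told apart.

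Across organs, the activator ARNTL and most of its repressors were most abundant in liver with TMM scaling. Of the 10 genes, 7 then had their highest organ mean in liver and the other 3, NR1D1, NR1D2 and DBP, in cord. With library totals only 4 of the 10 had their highest organ mean in liver. The positions given below are those of the deposited table, on the Macaca_fascicularis 5.0 build, and all 10 genes lie on the minus strand.

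ARNTL (chromosome 14, 54324661 to 54357918, 19 exon blocks) averaged 71.1 ± 16.8 CPM in liver, 11.6 ± 2.07 CPM in ganglia and 25.4 ± 3.07 CPM in cord (SD over 8, 10 and 8 animals). Liver stood above cord by 1.47 ± 0.11 and ganglia stood below cord on the log2 scale, at -1.15 ± 0.10 (± SE, limma adjusted p 4.42e-15 and 1.83e-12). No animal's ganglia reached the ARNTL level of any cord mean, so the 3 organs did not overlap.

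PER1, PER2 and PER3 encode the period proteins of the repressor complex, and with TMM scaling all 3 were highest in liver. PER1 (chromosome 16, 8264098 to 8279947, 26 exon blocks) averaged 209 ± 30.999 CPM in liver, 44.5 ± 9.002 CPM in ganglia and 49.3 ± 17.1 CPM in cord. Its liver minus cord difference, 2.19 ± 0.14 on the log2 scale, was the largest of the 10 genes in either direction (limma adjusted p 8.32e-17). Ganglia and cord differed by -0.052 ± 0.12 (limma adjusted p 0.704), within their error. This small difference turned to 0.0522 without the 2 lumbar libraries that lack MOG. PER2 (chromosome 12, 128090923 to 128138155, 23 exon blocks) averaged 78.5 ± 14.03 CPM in liver, 11.6 ± 1.81 CPM in ganglia and 22.5 ± 3.04 CPM in cord, and all 3 organs differed (liver minus cord 1.80 ± 0.10, ganglia minus cord -0.98 ± 0.09, limma adjusted p 1.10e-19 and 3.32e-12). PER3 (chromosome 1, 220486903 to 220548057, 22 exon blocks) averaged 127 ± 29.7 CPM in liver, 44.2 ± 7.92 CPM in ganglia and 87.8 ± 16.7 CPM in cord. Its step between liver and cord, 0.55 ± 0.13, was the smallest of the 3 (limma adjusted p 0.00026), and its step between ganglia and cord was -0.997 ± 0.11 (limma adjusted p 2.39e-10).

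The cryptochromes, which hold the ARNTL pair in its repressed state, differed from each other between the nervous tissues. CRY1 (chromosome 11, 110677354 to 110784584, 13 exon blocks) averaged 44.2 ± 5.96 CPM in liver, 16.9 ± 3.20 CPM in ganglia and 30.4 ± 2.66 CPM in cord, and the ganglia minus cord difference was -0.90 ± 0.071 on the log2 scale (limma adjusted p 5.73e-14). CRY2 (chromosome 14, 21720715 to 21758766, 13 exon blocks) averaged 190.1 ± 37.5 CPM in liver, 56.7 ± 6.07 CPM in ganglia and 63.05 ± 5.69 CPM in cord. Liver CRY2 exceeded cord CRY2 by 1.58 ± 0.068 (limma adjusted p 9.63e-23), but ganglia minus cord was -0.13 ± 0.056 (limma adjusted p 0.04), a call that was lost with median-ratio size factors (adjusted p 0.151) and turned in direction with unscaled library totals (0.016). It was also lost without treated animal 1, 4, 5 or 6 and without control animal 3 or 4, each left out alone (limma adjusted p 0.0525 to 0.180).

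The nuclear receptors NR1D1 and NR1D2, which repress ARNTL, were ordered differently from the PER and CRY genes. NR1D1 (chromosome 16, 51712561 to 51728834, 8 exon blocks) averaged 11.5 ± 1.84 CPM in liver, 19.3 ± 3.58 CPM in ganglia and 36.5 ± 4.10 CPM in cord, so liver was the lowest of the 3 organs (liver minus cord -1.66 ± 0.11, liver minus ganglia -0.76 ± 0.11, limma adjusted p 7.80e-17 and 2.14e-07). NR1D1 shares 1109 exon bases, 15.4% of its exon length, with THRA on the opposite strand, and counting did not use strand. THRA, a thyroid hormone receptor gene, also stood lower in liver than in cord, at -4.36 ± 0.22 (limma adjusted p 2.22e-20), and its part in the NR1D1 difference was not tested. NR1D2 (chromosome 2, 23433406 to 23470313, 11 exon blocks) was the most even of the 10 with TMM scaling, at 116 ± 39.8 CPM in liver, 117 ± 16.01 CPM in ganglia and 131 ± 14.4 CPM in cord. Its liver minus cord difference was -0.22 ± 0.093 (limma adjusted p 0.0281), while liver minus ganglia was -0.10 ± 0.10 and ganglia minus cord -0.12 ± 0.075 (limma adjusted p 0.371 and 0.137). The liver minus cord call was lost without treated animal 1 or 2 and without control animal 1, 3 or 4, each left out alone (limma adjusted p 0.0781 to 0.193), and without control animal 2 the other 2 contrasts passed (limma adjusted p 0.0165 and 0.0286). With library totals NR1D2 was lower in liver, at -1.26 in liver minus cord and -1.28 in liver minus ganglia (limma adjusted p 8.37e-14 and 4.43e-13).

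Of the output regulators, DBP (chromosome 19, 49463725 to 49471142, 4 exon blocks) averaged 9.74 ± 1.74 CPM in liver, 6.31 ± 2.40 CPM in ganglia and 16.8 ± 5.15 CPM in cord. Cord stood highest, since liver minus cord was -0.70 ± 0.16 and ganglia minus cord -1.38 ± 0.12 on the log2 scale (limma adjusted p 0.000149 and 4.91e-13). DBP shares 469 exon bases, 28.97% of its exon length, with the sphingosine kinase gene SPHK2 on the opposite strand. SPHK2 ran the other way between these organs, liver minus cord being 1.73 ± 0.13. TEF (chromosome 10, 9709010 to 9740971, 5 exon blocks) averaged 97.8 ± 24.01 CPM in liver, 66.2 ± 7.49 CPM in ganglia and 87.95 ± 10.7 CPM in cord, and liver and cord differed by 0.13 ± 0.092, which missed the threshold (limma adjusted p 0.178), while ganglia minus cord was -0.41 ± 0.074 (limma adjusted p 7.10e-06).

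In the limma fit of all 48 libraries, 9 of the 10 genes differed between liver and cord (6 higher and 3 lower in liver), 8 between ganglia and cord (all 8 lower in ganglia) and 9 between liver and ganglia (8 higher and 1 lower in liver). Without the 2 lumbar libraries that lack MOG the counts were again 9, 8 and 9. Organ differences were common, and the same threshold was passed by 80.7% of the 15240 genes tested between liver and cord, by 71.6% between ganglia and cord and by 79.3% between liver and ganglia. The median log2 difference of the 10 genes was 0.54, -0.90 and 1.49 in these 3 contrasts, beside -0.15, -0.04 and -0.10 over all genes. Scaling by library totals in place of TMM moved the median of all genes by -1.04 in liver minus cord, by 0.14 in ganglia minus cord and by -1.18 in liver minus ganglia. Under library totals PER3, CRY1 and TEF were lower in liver than in cord, and DBP and TEF lower in liver than in ganglia. These differences passed the threshold (limma adjusted p at most 0.00303). Ganglia minus cord turned positive for PER1, CRY2 and NR1D2, at 0.091, 0.016 and 0.017, and none of them passed (limma adjusted p 0.554, 0.848 and 0.87).

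Per kilobase of exon, CRY2 was the most abundant of the 10 genes in liver, at 44.9 ± 8.85 CPM per kb, followed by PER1 at 29.1 ± 4.32, and NR1D1 was the least, at 1.59 ± 0.256. In ganglia NR1D2 led at 20.3 ± 2.79 CPM per kb and PER2 was last at 1.35 ± 0.209. NR1D2 led also in cord, at 22.8 ± 2.51 CPM per kb, with PER2 last at 2.61 ± 0.351 (SD over 8 animals for liver and cord and 10 for ganglia).

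**Figure D1:**
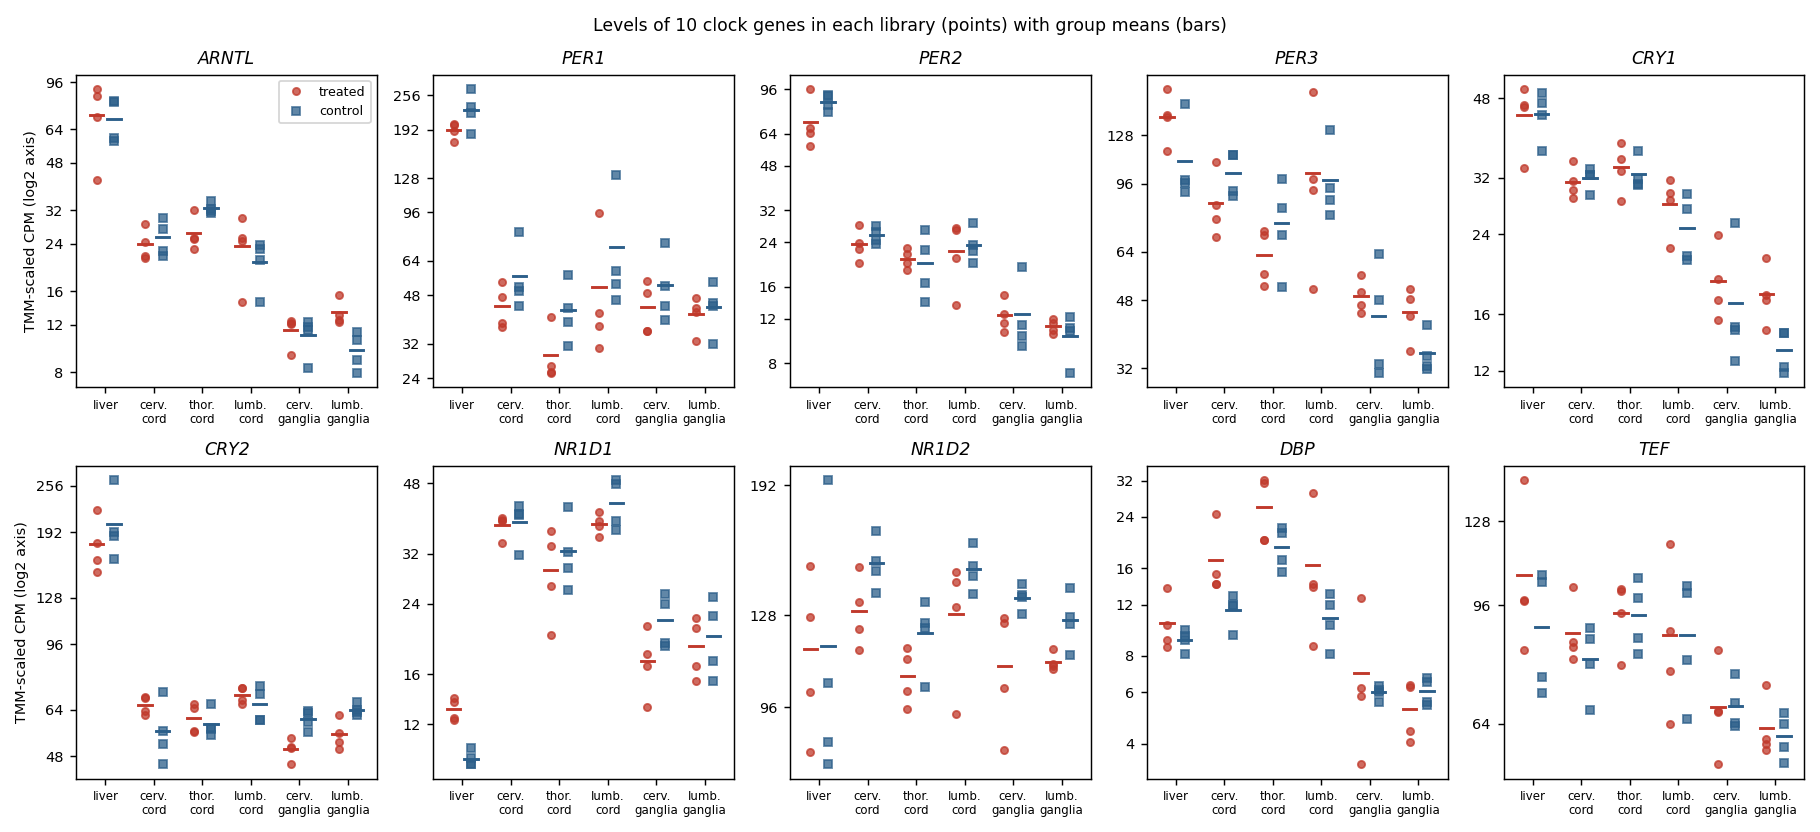
Level of each of the 10 clock genes in every library (TMM-scaled CPM, log2 axis), in 1 panel per gene, with the 6 tissues along the x axis, treated animals as circles on the left and control animals as squares on the right of each pair, and bars at the group means. PER1, PER2, PER3, CRY1, CRY2 and ARNTL stand highest in liver, NR1D1 stands lowest there, and the treated and control points overlap in most pairs.

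Whether GS-8873 moved the clock genes was tested in each tissue with edgeR's quasi-likelihood test, with sex as a covariate and Benjamini-Hochberg adjustment over all genes. None of the 10 genes passed an adjusted p of 0.05 in any of the 6 tissues. In liver, cervical cord, thoracic cord, lumbar cord and cervical ganglia no gene of the whole table passed either, a background of 0% in each, and in lumbar ganglia 4.29% of 14267 genes passed. At an unadjusted p under 0.05, edgeR returned 1 of the 10 in liver (NR1D1), 1 in cervical cord (DBP), 1 in thoracic cord (PER1), 0 in lumbar cord, 0 in cervical ganglia and 4 in lumbar ganglia (ARNTL, CRY1, PER3 and CRY2), beside 8.32%, 9.53%, 2.33%, 1.74%, 7.35% and 22.6% of all genes in these tissues. DESeq2 and limma voom also passed 0 of the 10 in each tissue. At an unadjusted p under 0.05, DESeq2 returned 2, 1, 1, 0, 0 and 5 of them in the same order of tissues and limma voom 2, 1, 1, 0, 0 and 4. Counts summed over the cord levels of each animal gave 0 of 10 with a background of 0%. There edgeR, DESeq2 and limma voom each returned 1 of the 10 at an unadjusted p under 0.05, beside 3.49% of all genes in edgeR. A joint limma fit of the 16 ganglion libraries gave 0 of 10 with a background of 0.943%. That fit returned 1 of the 10 at an unadjusted p under 0.05, beside 11.5% of all genes.

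The direction was mixed. Of the 10 genes, the log2 fold change of treated over control was positive for 6 in liver, 3 in cervical cord, 5 in thoracic cord, 4 in lumbar cord, 6 in cervical ganglia and 5 in lumbar ganglia. With library totals these counts were 8, 5, 5, 6, 6 and 9 in the same order of tissues. The median of all genes moved by 0.18 in liver and 0.19 in lumbar ganglia, so the signs of small fold changes depended on scaling there. The median size of the log2 fold change was 0.21 in liver against 0.14 over all genes there, and 0.16 to 0.23 in the other 5 tissues against 0.20 to 0.26 over all genes. Groups of 4 without overlap were found for NR1D1 in liver (background 5.11% of genes), DBP in cervical cord (5.94%), CRY2 and NR1D2 in cervical ganglia (5.26%) and ARNTL, CRY1 and CRY2 in lumbar ganglia (16%), and for none of the 10 in thoracic cord (2.02%) or lumbar cord (1.59%).

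**Figure D2:**
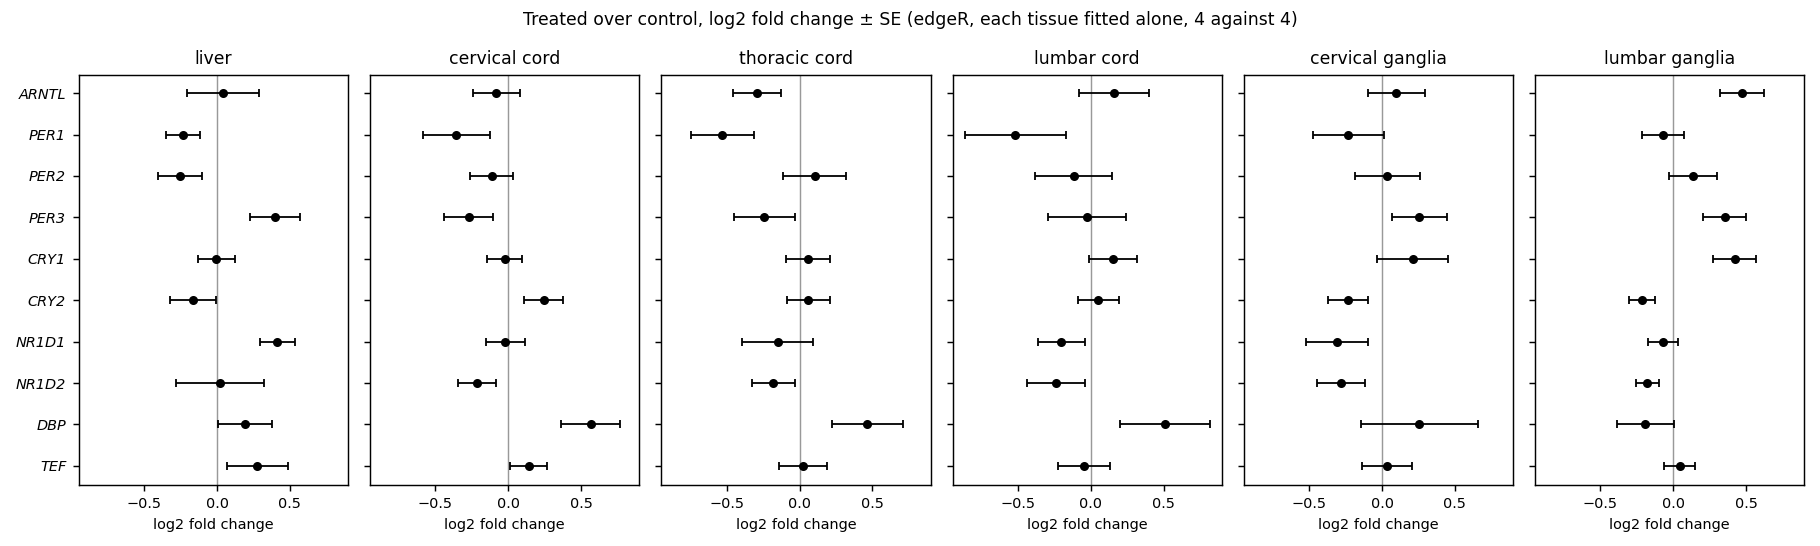
Log2 fold change of treated over control with its standard error (edgeR) for the 10 clock genes in each of the 6 tissues, 1 panel per tissue, with a line at 0. Values lie between -0.53 and 0.57, no gene passed an adjusted p of 0.05, and with TMM scaling, as drawn, PER1 lies below 0 in all 6 tissues (with library totals it is at 0.12 in lumbar ganglia).

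For the activator ARNTL, the tissue with the smallest p was lumbar ganglia. It had 12.5, 12.996, 15.5 and 12.3 CPM in treated animals 2, 3, 5 and 6, against 8.91, 10.5, 11.3 and 7.93 CPM in control animals 1 to 4. All 4 treated values lay above all 4 control values, and the highest was that of animal 5, which gave no other tissue. Means were 13.3 ± 1.503 CPM in treated animals and 9.66 ± 1.52 CPM in controls (SD, n = 4 each), a log2 fold change of 0.47 ± 0.15 (edgeR p 0.0153, adjusted p 0.125). With library totals in place of TMM scaling ARNTL passed, at 0.67 with an edgeR adjusted p of 0.0342. In that setting 1843 of the 14267 genes tested passed, against 612 with TMM. In the same libraries the summed Schwann cell markers were highest (9205 CPM) and the summed sensory neuron markers lowest (1307 CPM) in treated animal 5. The sensory neuron sums overlapped between the groups, at 1307 to 3333 CPM in treated animals and 2074 to 2451 CPM in controls. The summed general neuron markers (5 of 5 listed genes in the file) did not overlap between the groups, at 2365 to 3282 CPM in treated animals and 3747 to 4544 CPM in controls. Of these 5, SNAP25, a synaptic protein gene, fell in treated animals (log2 fold change -1.21 ± 0.15, edgeR adjusted p 0.0154), as did CHAT, the acetylcholine-synthesis gene, of 2 motor neuron markers tested (-1.78 ± 0.39, edgeR adjusted p 0.0478). These marker values stand beside ARNTL, CRY1 and CRY2 alike in lumbar ganglia, and their part in those results was not tested. In cervical ganglia the groups overlapped, with 12.03, 12.2, 9.26 and 12.4 CPM in treated animals 1, 2, 4 and 6, against 11.5, 12.3, 11.7 and 8.28 CPM in control animals 1 to 4, and the joint fit of both ganglion levels gave 0.30 ± 0.16 (limma adjusted p 0.497). In thoracic cord, where its fold change was negative, ARNTL had 25.3, 25.1, 32.1 and 23.002 CPM in treated animals 1 to 4, against 34.5, 32.4, 31.9 and 31.3 CPM in control animals 1 to 4. Only treated animal 3 reached the control values there, and the log2 fold change was -0.29 ± 0.16 (edgeR adjusted p 0.981). Liver ARNTL ran from 41.4 to 90.7 CPM in treated animals and from 58.0 to 81.4 CPM in controls.

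With TMM scaling the fold change of PER1 was negative in every tissue, with no test passed. With library totals it was again negative in 5 tissues but 0.12 in lumbar ganglia, against -0.073 there with TMM. In thoracic cord it had 26.5, 25.2, 40.1 and 25.02 CPM in treated animals 1 to 4, against 43.01, 31.5, 56.8 and 38.4 CPM in control animals 1 to 4. Of the treated animals, 3 lay below all controls and animal 3 lay among them. The log2 fold change was -0.53 ± 0.22 (edgeR p 0.0401, adjusted p 0.981). Lumbar cord held 95.5, 36.98, 41.5 and 30.96 CPM in treated animals 1 to 4, against 131, 58.6, 46.05 and 52.7 CPM in control animals 1 to 4. The 2 highest values are those of treated animal 1 and control animal 1, the libraries without MOG, and the fold change was -0.52 ± 0.35 with them and -0.53 without them (edgeR adjusted p 0.9999 and 0.808). In cervical cord, where PER1 had 53.4, 36.7, 47.5 and 38.1 CPM in treated animals 1 to 4, against 81.6, 43.95, 51.3 and 49.6 CPM in control animals 1 to 4, control animal 1 was again the highest. Summed over the 3 cord levels, PER1 had a log2 fold change of -0.45 ± 0.25 (edgeR adjusted p 0.858), which was -0.23 without control animal 1. Liver PER1 had 173, 202, 190.4 and 199.7 CPM in treated animals 1 to 4, against 231, 270.4, 185 and 220.4 CPM in control animals 1 to 4, with 1 control value inside the treated range, and a log2 fold change of -0.23 ± 0.11 (edgeR adjusted p 0.654).

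PER3 had positive log2 fold changes in lumbar ganglia and in liver, and neither passed. The lumbar ganglia had 48.2, 43.5, 51.2 and 35.4 CPM in treated animals 2, 3, 5 and 6, against 31.9, 32.5, 34.3 and 41.3 CPM in control animals 1 to 4. Treated animals 2, 3 and 5 lay above every control and animal 6 below the highest one, for a log2 fold change of 0.35 ± 0.15 (edgeR p 0.0425, adjusted p 0.205). In liver PER3 had 169, 116, 144 and 143 CPM in treated animals 1 to 4, against 97.9, 154, 96.6 and 91.5 CPM in control animals 1 to 4. Control animal 2, at 154 CPM, stood apart from the other controls and inside the treated range, and the fold change was 0.40 ± 0.17 (edgeR p 0.0505, adjusted p 0.599). PER2 was not among the 3 smallest p values of any tissue, and its log2 fold changes ran from -0.25 to 0.13 over the treated comparisons.

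The cryptochromes had fold changes of opposite sign in lumbar ganglia. CRY1 in lumbar ganglia had 17.6, 14.7, 21.3 and 17.2 CPM in treated animals 2, 3, 5 and 6, against 11.9, 12.2, 14.6 and 14.6 CPM in control animals 1 to 4. The 4 treated values lay above the controls, the nearest pair being treated animal 3 and a control at 14.6 CPM, with animal 5 the highest. Means were 17.7 ± 2.70 CPM in treated animals and 13.3 ± 1.46 CPM in controls (SD, n = 4 each), a log2 fold change of 0.42 ± 0.15 (edgeR p 0.0234, adjusted p 0.155). With library totals CRY1 passed at 0.61 with an edgeR adjusted p of 0.0435, a setting in which 1843 of 14267 genes passed. CRY2 in the same libraries had 55.5, 62.2, 50.3 and 52.5 CPM in treated animals 2, 3, 5 and 6, against 63.9, 63.2, 62.2 and 67.1 CPM in control animals 1 to 4. The treated values lay below the controls, but treated animal 3, at 62.17 CPM, all but touched control animal 3, at 62.18 CPM. The log2 fold change was -0.21 ± 0.089 (edgeR p 0.0429, adjusted p 0.206), and with library totals it was -0.022 (adjusted p 0.89), close to 0. In cervical ganglia CRY2 had 50.8, 53.8, 50.6 and 45.7 CPM in treated animals 1, 2, 4 and 6, against 62.8, 63.5, 59.4 and 55.8 CPM in control animals 1 to 4. No treated value reached a control value, and means were 50.2 ± 3.36 CPM in treated animals and 60.4 ± 3.54 CPM in controls (SD, n = 4 each), a log2 fold change of -0.23 ± 0.14 (edgeR p 0.125, adjusted p 0.729). Both ganglion levels in 1 limma fit gave -0.21 ± 0.10 for CRY2 (adjusted p 0.448). In cervical cord the CRY2 fold change was positive, at 0.24 ± 0.13 (edgeR adjusted p 0.522), with 62.1, 63.6, 69.2 and 68.9 CPM in treated animals 1 to 4, against 51.8, 45.9, 71.4 and 56.1 CPM in control animals 1 to 4, and the groups overlapped.

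NR1D1 in liver had the smallest adjusted p of the 10 genes in that organ. It had 13.7, 12.5, 13.97 and 12.3 CPM in treated animals 1 to 4, against 9.55, 10.5, 9.54 and 9.87 CPM in control animals 1 to 4. Every treated liver exceeded every control liver. Means were 13.1 ± 0.836 CPM in treated animals and 9.87 ± 0.446 CPM in controls (SD, n = 4 each), a log2 fold change of 0.41 ± 0.12 (edgeR p 0.00883, adjusted p 0.402). Over the alternatives the fold change ran from 0.37 to 0.59 and the adjusted p from 0.0991 to 0.637, so it was never called. The summed hepatocyte markers did not overlap between the same 4 treated and 4 control livers either, being lower in treated animals, and THRA, the overlapping gene, had a fold change of -0.04 ± 0.17. The part of the hepatocyte markers in the NR1D1 result was not tested. NR1D1 had negative fold changes in lumbar cord, at -0.20 ± 0.16, and in cervical ganglia, at -0.31 ± 0.21 (edgeR adjusted p 0.9999 and 0.746).

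NR1D2 in cervical ganglia had 102, 127, 83.99 and 125 CPM in treated animals 1, 2, 4 and 6, against 128, 136, 136 and 141 CPM in control animals 1 to 4. The groups did not overlap, though treated animals 2 and 6 lay just below control animal 1 and animal 4 was far the lowest. Means were 109 ± 20.3 CPM in treated animals and 135 ± 5.21 CPM in controls (SD, n = 4 each), a log2 fold change of -0.28 ± 0.16 (edgeR p 0.121, adjusted p 0.729), and without treated animal 4, whose sensory neuron markers were the lowest, it was -0.19. Lumbar ganglia held 115, 110.0, 108 and 109 CPM in treated animals 2, 3, 5 and 6, against 127, 139, 113 and 125 CPM in control animals 1 to 4. There only control animal 3 fell inside the treated range, and the joint fit of both levels gave -0.26 ± 0.11 (limma p 0.0357, adjusted p 0.382). In cervical cord and in the cord sum NR1D2 also had negative fold changes, at -0.21 ± 0.13 and -0.20 ± 0.14 (edgeR adjusted p 0.537 and 0.858).

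DBP had positive fold changes at all 3 levels of the spinal cord, and none passed. In cervical cord it had 14.1, 15.3, 14.1 and 24.7 CPM in treated animals 1 to 4, against 9.41, 11.8, 12.8 and 11.99 CPM in control animals 1 to 4. Every treated value exceeded every control value, and animal 4 stood far above the other treated animals. The summed endothelial markers (5 of 5 listed genes in the file) did not overlap in these libraries either, at 62.1 to 118 CPM in treated animals and 128 to 212 CPM in controls, with 0 of the 5 past the threshold and 3 at an unadjusted p under 0.05 in edgeR. Their part in the DBP result was not tested. Means were 17.1 ± 5.10 CPM in treated animals and 11.5 ± 1.47 CPM in controls (SD, n = 4 each), a log2 fold change of 0.57 ± 0.20 (edgeR p 0.0244, adjusted p 0.504), which was 0.37 without treated animal 4. Its opposite-strand neighbour SPHK2 had a fold change of 0.52 ± 0.17 in the same libraries (edgeR p 0.0178, adjusted p 0.504), and its part in the DBP result was not tested.

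In thoracic cord DBP had 32.1, 20.02, 20.05 and 31.5 CPM in treated animals 1 to 4, against 15.5, 21.1, 17.1 and 21.998 CPM in control animals 1 to 4. Animals 1 and 4 were the high treated ones and the other 2 lay within the control range. The fold change was 0.46 ± 0.24 (edgeR adjusted p 0.981), and 0.21 without the 3 thoracic libraries that had over 30% mitochondrial counts (32.2% and 36.4% in treated animals 1 and 4, 37.3% in control animal 4). Lumbar cord held 8.65, 14.1, 13.8 and 29.02 CPM in treated animals 1 to 4, against 8.13, 10.2, 11.9 and 13.04 CPM in control animals 1 to 4. Animal 4 was again the highest and the groups overlapped, for a fold change of 0.51 ± 0.31, and 0.22 without animal 4. Averaged over the 3 levels, DBP was 18.3, 16.5, 15.99 and 28.4 CPM in treated animals 1 to 4, against 11.02, 14.4, 13.96 and 15.7 CPM in control animals 1 to 4. The lowest treated and the highest control average lay close together, at 15.99 and 15.7 CPM. The fit of summed counts gave 0.55 ± 0.21 (edgeR p 0.0287, adjusted p 0.858), or 0.32 without animal 4 and 0.60 without the 2 libraries that lack MOG.

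The high DBP of treated animal 4 was seen outside the cord as well. Cervical ganglia had 5.83, 6.19, 12.6 and 3.39 CPM in treated animals 1, 2, 4 and 6, against 6.32, 6.09, 5.99 and 5.58 CPM in control animals 1 to 4. Animal 4 was far above every other library there, animal 6 the lowest, and the fold change was 0.26 ± 0.40 (edgeR adjusted p 0.891). In lumbar ganglia, to which animal 4 did not contribute, DBP had 6.26, 6.36, 4.05 and 4.41 CPM in treated animals 2, 3, 5 and 6, against 5.57, 5.43, 6.73 and 6.51 CPM in control animals 1 to 4, and the groups overlapped. Its neighbour SPHK2 was called lower in treated lumbar ganglia, at -0.80 ± 0.18 (edgeR adjusted p 0.0481), and so was THRA, at -0.52 ± 0.10 (edgeR adjusted p 0.0297), whereas DBP and NR1D1 were not called there, at -0.19 ± 0.20 and -0.072 ± 0.10. TEF was not among the 3 smallest p values of any tissue, and its log2 fold changes ran from -0.045 to 0.28 over the treated comparisons.

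**Figure D3:**
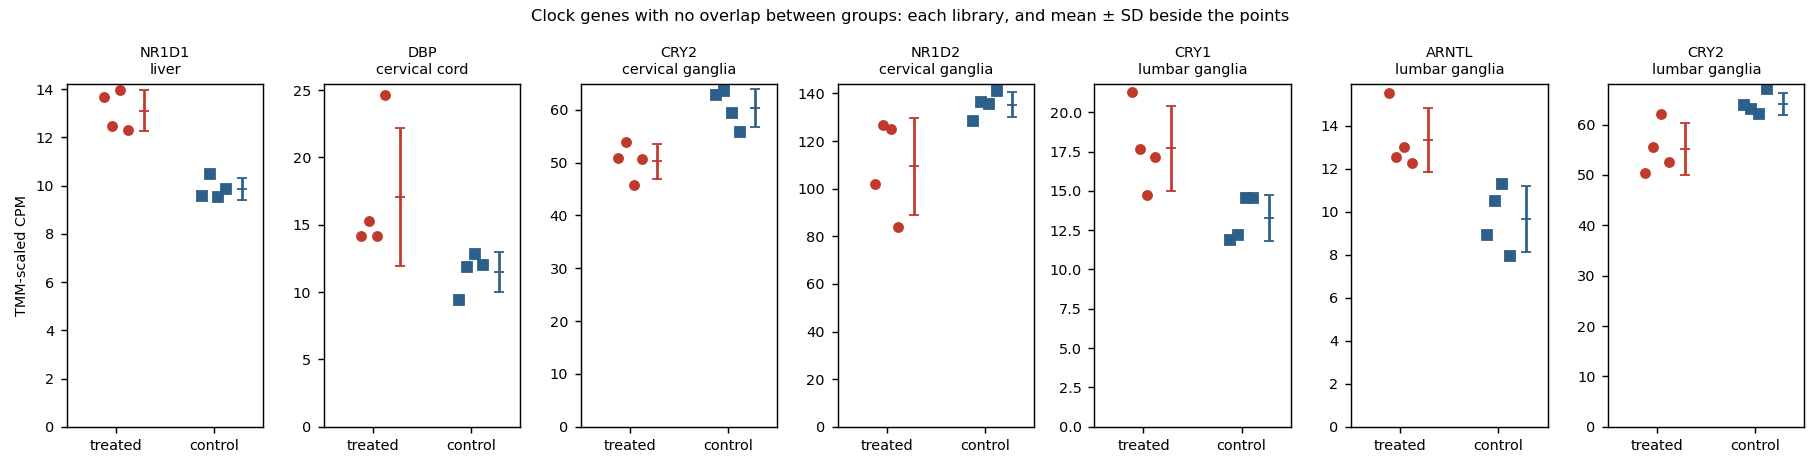
TMM-scaled CPM of every animal for the 7 pairs of clock gene and tissue whose treated and control groups did not overlap, treated animals left and controls right, with mean ± SD (n = 4 each). NR1D1 in liver, DBP in cervical cord and ARNTL and CRY1 in lumbar ganglia are higher in treated animals, CRY2 in both ganglia and NR1D2 in cervical ganglia are lower, and none passed an adjusted p of 0.05.

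Whether treatment acted differently between organs was tested by interaction contrasts in the limma fit of all libraries. None of the 10 passed an adjusted p of 0.05 in liver minus cord, ganglia minus cord or liver minus ganglia, where 0.157%, 0.308% and 0.0328% of 15240 genes passed. At an unadjusted p under 0.05 these contrasts held 3, 3 and 1 of the 10, beside 5.58%, 9.79% and 6.15% of all genes. The smallest adjusted p was that of CRY2, whose treatment effect differed between ganglia and cord by -0.36 ± 0.11 on the log2 scale (limma p 0.00262, adjusted p 0.178). PER3 and DBP followed in that contrast, at 0.47 ± 0.22 and -0.50 ± 0.23 (limma adjusted p 0.462 and 0.48). NR1D1 led both contrasts with liver, at 0.53 ± 0.21 against cord and 0.62 ± 0.23 against ganglia (limma adjusted p 0.755 and 0.467). Against cord, PER3 and CRY2 followed at 0.58 ± 0.26 and -0.30 ± 0.14, and against ganglia PER2 and NR1D2 at -0.34 ± 0.22 and 0.33 ± 0.20, with limma adjusted p values of 0.854, 0.856, 0.962 and 0.949. Males and females gave no call among the 10 genes (0 at an unadjusted p under 0.05, background 0.105% at the adjusted threshold); DBP had the largest male minus female difference, -0.21 ± 0.15 (limma adjusted p 0.772).

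Tissues of 1 animal were collected at the same necropsy per the design text, so the clock genes could be compared between tissues across animals. For 7 pairs of tissues and 10 genes, 70 correlations of log2 CPM were computed over the animals that gave both tissues; 52 were positive, with a median r of 0.39, 13 had an unadjusted p under 0.05 and 0 passed after adjustment over the 70. Cervical and lumbar cord had the highest median r over the 10 genes, 0.73, with all 10 positive, followed by cervical and lumbar ganglia at 0.64 (6 animals, all 10 positive), cervical and thoracic cord at 0.48 (all 10 positive), and cord and ganglia at 0.45 (8 positive). Thoracic and lumbar cord gave 0.23 (8 positive). Liver did not share this order, with a median r of -0.0083 with ganglia (4 positive) and -0.32 with cord (2 positive). After leaving out the 2 animals farthest from the median on the x axis, the median of all 70 was 0.18. These correlations pool treated and control animals. With values centred on the mean of each treatment group, 52 were again positive, with a median r of 0.33. Of these 70 centred correlations, 10 had an unadjusted permutation p under 0.05 and 0 passed after adjustment.

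PER1 in cervical and lumbar cord had the second highest r of the 10 genes in that pair of tissues. Pearson's r was 0.88 and Spearman's rho 0.81 over 8 animals (two-sided exact permutation p 0.00233 for r and 0.0218 for rho, adjusted 0.144 and 0.401), and r was 0.72 without the 2 animals farthest from the median. Without treated animal 1 and control animal 1, whose lumbar libraries lack MOG, it was 0.65 over 6 animals (exact permutation p 0.165). Between cervical and lumbar ganglia, for PER1 Pearson's r was 0.90 and Spearman's rho 0.89 over 6 animals (two-sided exact permutation p 0.00972 for r and 0.0333 for rho, adjusted 0.144 and 0.401), and r without 2 animals was 0.83. For DBP in cervical and lumbar cord Pearson's r was 0.89 and Spearman's rho 0.83 over 8 animals (two-sided exact permutation p 0.0103 for r and 0.0154 for rho, adjusted 0.144 and 0.401), but r was 0.23 without the 2 farthest animals, so the relation rested on them, treated animal 4 being the highest in both tissues. Without the libraries that lack MOG it was 0.97 over 6 animals (exact permutation p 0.00833, adjusted 0.17). For NR1D2 in cord and ganglia Pearson's r was 0.85 and Spearman's rho 0.74 over 8 animals (two-sided exact permutation p 0.00933 for r and 0.0458 for rho, adjusted 0.144 and 0.401), and r was 0.52 without 2 animals. NR1D2 averaged lower in treated than in control animals in both organs, at 121 against 140 CPM in cord and 107 against 131 CPM in ganglia. With values centred on the group means, 0 of the 10 genes had a permutation p under 0.05 between cord and ganglia, and the highest r was 0.73. For DBP in cord and ganglia Pearson's r was 0.87 and Spearman's rho 0.45 over 8 animals (two-sided exact permutation p 0.0432 for r and 0.267 for rho, adjusted 0.233 and 0.535), and r was 0.12 without 2 animals, so that relation rested on them too.

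ARNTL had a negative correlation between liver and cord that did not pass after adjustment. Treated animals 1 to 4 had 85.5, 71.3, 41.4 and 90.7 CPM of ARNTL in liver, and 20.5, 24.7, 30.2 and 23.2 CPM as the mean of their cord levels. Control animals 1 to 4 had 81.4, 57.98, 59.5 and 80.9 CPM in liver and 23.6, 27.7, 27.6 and 25.6 CPM in cord. The animal lowest in liver, treated animal 3, was the highest in cord, and the 3 animals highest in liver were the 3 lowest in cord. Pearson's r was -0.87 and Spearman's rho -0.88 over 8 animals (two-sided exact permutation p 0.00496 for r and 0.00724 for rho, adjusted 0.144 and 0.401). Without the 2 farthest animals r was -0.75 (exact permutation p 0.0833), so the relation kept its direction and did not pass on its own. Without the 2 lumbar libraries that lack MOG it was -0.89 (exact permutation p 0.00258, adjusted 0.17).

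Within an organ, ARNTL was set against each of the other 9 genes over animals in liver, ganglia and cord, 27 relations in all, of which 2 had an unadjusted p under 0.05 and 0 passed after adjustment. Both were in liver and negative, and with library totals neither had an unadjusted p under 0.05. With values centred on the treatment group means, 3 of the 27 had an unadjusted permutation p under 0.05 and 0 passed after adjustment. With library totals 19 in place of 9 of the 27 relations were positive, and those with an unadjusted p under 0.05 were 4 positive ones, ARNTL with CRY1 in liver, ganglia and cord and with NR1D1 in cord. None of the 27 passed after adjustment with library totals over all animals, while 4 did after the 2 farthest animals were left out (PER2, PER3 and CRY1 in ganglia and NR1D1 in cord). For ARNTL and DBP Pearson's r was -0.84 and Spearman's rho -0.69 over 8 animals (two-sided exact permutation p 0.0164 for r and 0.0694 for rho, adjusted 0.432 and 0.595), and -0.33 without the 2 farthest animals, so it rested on them. With library totals r was -0.47 over all 8 (exact permutation p 0.246). For ARNTL and NR1D2 Pearson's r was -0.74 and Spearman's rho -0.83 over 8 animals (two-sided exact permutation p 0.032 for r and 0.0154 for rho, adjusted 0.432 and 0.415), and r was -0.56 without the 2 farthest animals. With library totals Pearson's r for ARNTL and NR1D2 was -0.71 over all 8 (exact permutation p 0.0529). Spearman's rho was then weaker, at -0.64 (exact permutation p 0.0962), and r without the 2 farthest animals was only -0.12. Treated animal 3 had the lowest ARNTL of the 8 livers at 41.4 CPM, the highest DBP at 13.7 CPM and the highest TEF at 147 CPM. Its NR1D2, at 149 CPM, was below only the 195 CPM of control animal 2, its NR1D1 was the highest and its PER3 ranked 3 from the top. Other members did not stand high in that liver. From the top of the 8 livers, PER1 ranked 6 (190 CPM), PER2 6 (67.7 CPM), CRY2 7 (162 CPM) and CRY1 8 (33.6 CPM). Of genes outside the 10, the clock repressor CIART was also highest in the liver of treated animal 3, at 16.2 CPM against 8.84 to 12.8 CPM in the other 7. HLF, also outside the 10, ranked 5 there.

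**Figure D4:**
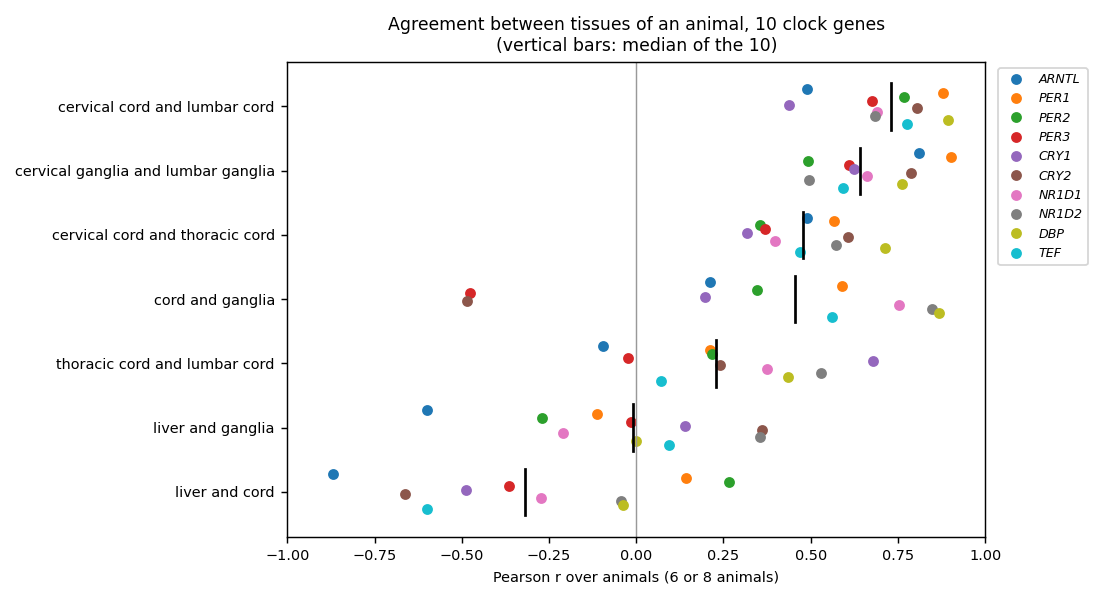
Pearson's r over animals between 2 tissues for each of the 10 clock genes (1 point per gene, log2 TMM-scaled CPM), for 7 pairs of tissues, with bars at the medians. The points lie above 0 for cervical against lumbar cord and cervical against lumbar ganglia and mostly below 0 for liver against cord, and 0 of 70 passed after adjustment.

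The share of each gene's variance that lay between animals, after the mean of each tissue and treatment group was removed, is a description of how far an animal's tissues moved together. Over all 48 libraries its median for the 10 genes was 11.997%, against 15.98% over 15240 genes, and 3 of the 10 lay above the median of all genes. ARNTL had an estimate of -18.2%, below all but 0.262% of genes, a negative estimate arising where tissues of 1 animal differ more than tissues of different animals. NR1D1 and DBP had the highest shares, 30.9% and 30.4%. In the 40 nervous tissue libraries alone the median of the 10 was 26.1% against 22.05% over all genes, and 7 of the 10 lay above. ARNTL itself was at 21.2% there, at percentile 48.9 of all genes, so its low estimate was seen only with liver included. The spread of the 10 genes between animals of a group was smaller than that of the median gene in each nervous tissue and not in liver: the median SD of log2 CPM was 0.183 in cervical cord against 0.322 over all genes, 0.239 against 0.366 in thoracic cord, 0.348 against 0.475 in lumbar cord, 0.294 against 0.372 in cervical ganglia and 0.195 against 0.229 in lumbar ganglia. In liver it was 0.253 against 0.239. All genes tested in a tissue entered these medians without matching for expression level, so the part of level in the difference was not tested.

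DBP and TEF were higher in nervous tissue libraries with a larger share of mitochondrial counts. After tissue and treatment means were removed, Pearson's r with that share over the 40 nervous tissue libraries was 0.68 for both DBP and TEF, at percentiles 88.4 and 88.6 of all genes, and -0.52 for NR1D1, -0.50 for PER3, -0.49 for PER1 and -0.48 for NR1D2; the median size of r over all genes was 0.42. These libraries come from 10 animals and share tissue and depth, so r is given as a description. Treated animal 4, with 25.7% mitochondrial counts in cervical cord against at most 17.2% in the other 7 animals, 27.04% in lumbar cord against at most 16.2%, and 23.006% in cervical ganglia against at most 13.4%, is the animal with the highest DBP in each of these tissues. In liver, where DBP was not high in animal 4 (9.05 CPM), its groups overlapped. The part of the mitochondrial share in the DBP result was not tested beyond the values without these libraries given above.

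**Figure D5:**
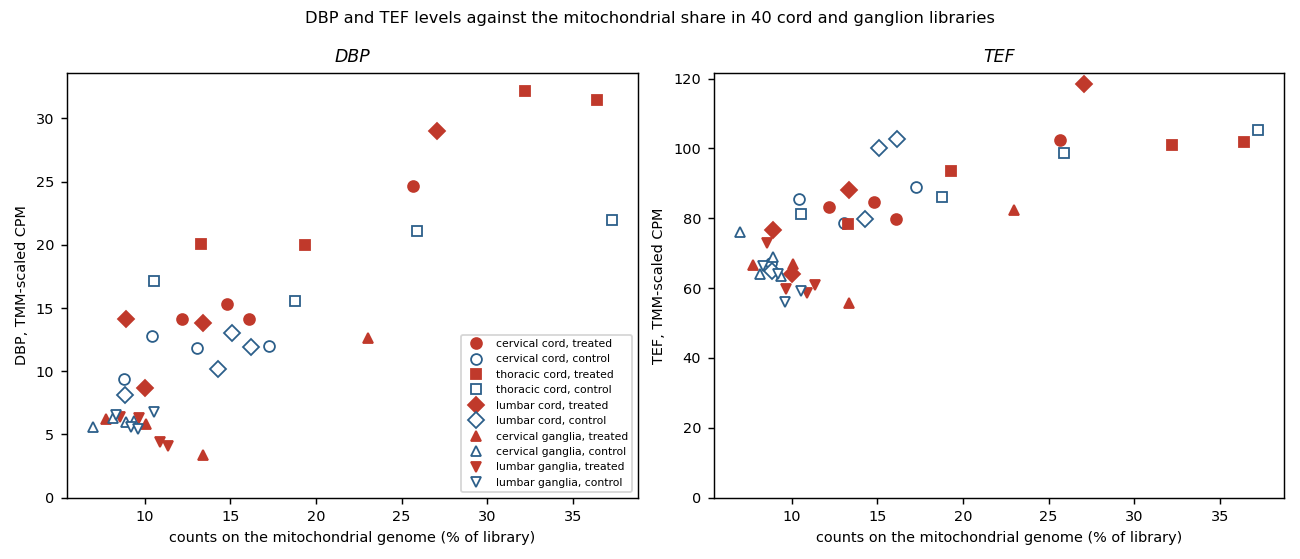
TMM-scaled CPM of DBP and TEF (y axes, from 0) against the share of counts on the mitochondrial genome (x axis, percent of the library) in the 40 cord and ganglion libraries, with a marker shape for each tissue, filled for treated and open for control animals. Libraries with a high share have high DBP and TEF, and those with over 30% are 2 treated and 1 control thoracic cord libraries.

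The genes whose pattern over the 48 libraries was most like that of a clock gene were listed by Pearson's r after tissue and treatment means were removed, among 10681 genes with a mean of at least 1 CPM in every tissue. For ARNTL they were NPAS2 (0.74), which encodes a partner of ARNTL in the clock, then DCLK2, HIP1R, ADGRG1 and GRIA3 (0.74 to 0.72). For PER2 they were TET2 (0.75), ZSCAN25 (0.73), NASP, IKBKB and N4BP2 (0.67 to 0.66), and PER3 ranked 122 (0.56) and PER1 ranked 333 (0.50). For DBP they included ATP6V0C, CPTP, ERI3 and PIP4P1 (0.90 to 0.88), with TEF at rank 408 (0.78), while PER1 ran against DBP (-0.58). The libraries share animals, scaling and depth, and no p is given.

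The rest of the clock was read from a list of 16 other clock genes, of which 14 carry a name in the file (CSNK1E and FBXL21 are not analysed here). None of the 13 to 14 tested passed an adjusted p of 0.05 for treated against control in any tissue, with edgeR, and at an unadjusted p under 0.05 edgeR returned 1, CSNK1D in lumbar ganglia. CSNK1D, the casein kinase that phosphorylates PER proteins, had a log2 fold change of -0.24 ± 0.10 there (edgeR p 0.0401, adjusted p 0.198). In lumbar ganglia 11 of the 14 had positive fold changes, beside 56.3% of all genes, and with library totals 12 did, beside 74.7%. Among them was NFIL3, a repressor that competes with DBP for its sites, at 0.58 ± 0.27 (edgeR adjusted p 0.249). NPAS2 in the joint ganglion fit was at 0.35 ± 0.16 (limma p 0.0379, adjusted p 0.392), CLOCK in cervical cord at -0.69 ± 0.35 and BHLHE40, which represses the ARNTL pair, in liver at 0.72 ± 0.39 (edgeR adjusted p 0.51 and 0.681). Among 9 clock output genes, 10 glucocorticoid-induced genes in the file and 10 immediate early genes, edgeR passed 0 of those tested in every tissue, with 3, 1 and 5 calls at an unadjusted p under 0.05 over the 6 tissues. The smallest p values included those of POR, a partner of cytochrome P450 enzymes, in liver (-0.35 ± 0.13, edgeR p 0.0239, adjusted p 0.5), and ARC, an activity-induced neuronal gene, in cervical cord (1.62 ± 0.43, edgeR p 0.00548, adjusted p 0.504). Between organs, 7 of the 14 other clock genes were higher and 4 lower in liver than in cord, a share of called genes near the 80.7% of all genes. NPAS2, like NR1D1 and unlike ARNTL, was lower in liver than in cord, at -1.36 ± 0.21 (limma adjusted p 2.89e-07).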

How the data were processed

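The authors deposited 1 table of raw counts per gene name for 48 libraries. Counting was done with featureCounts 1.4.6-p1 on Ensembl release 94 of Macaca_fascicularis 5.0, per the file headers, and reads had been aligned by STAR 2.5.3a, per the submitters' processing notes. Libraries were made with a stranded mRNA kit, per the labels' protocols, but the counting command set neither strand nor pairs, so each mate counted as 1 read and genes that overlap on opposite strands can share reads. Every per-sample column was used.

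The members and lists were chosen with earlier results of these data known. In edgeR 4.0.16 under R 4.3.3, each tissue was fitted alone: low counts were removed with filterByExpr, scaling was by TMM, sex was a covariate, and the robust quasi-likelihood test was used. Counts summed over cord levels per animal were tested the same way. For the 16 ganglion libraries together, and for all 48, limma 3.58.1 with voom was used, animal entering as a random block through duplicateCorrelation (statmod 1.5.0, consensus correlations 0.718 and 0.199). Organ contrasts average regions and treatment groups. The threshold was an adjusted p under 0.05 (Benjamini-Hochberg, all genes tested), and tests are two-sided. DESeq2 1.42.0 was an alternative. Levels are TMM-scaled CPM, logged after adding 0.5 to the CPM, given as mean ± SD, and fold changes are log2 ± SE. Marker sums are CPM of library totals. Correlations over animals have exact permutation p values below 10 animals, and 100000 permutations at 10 (Python 3.11.15, scipy 1.17.1). The fits were tested on simulated counts. In each treated comparison, genes past the threshold, the 3 with the smallest p and those without overlap between groups are named; a few other genes are not reported here. Replicates are separate animals by label. Same replicate numbers across groups were taken as pairs only if the deviations of every pair correlated by over 0.1, which no tissue met.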

Additional observations from a re-analysis of the deposited data

Results flagged for a closer look

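In 9 of the 120 groups of 4 libraries (10 genes, 6 tissues, treated and control), 1 library stood so far from the other 3 that the gap divided by the range passed Dixon's 95% critical value; chance gives about 1 such group in 20. For PER1, these were treated animal 3 in thoracic cord (40.1 CPM, others 25.02 to 26.52), treated animal 1 in lumbar cord (95.5 CPM, others 30.96 to 41.53) and control animal 1 in lumbar cord (131 CPM, others 46.05 to 58.61). The lumbar pair are the libraries that lack MOG. For PER3, control animal 2 stood apart in liver (154 CPM, others 91.5 to 97.9), and for CRY1, control animal 3 in thoracic cord (36.7 CPM, others 30.9 to 31.8).

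Treated animal 4 stood apart in 3 groups: for ARNTL in cervical ganglia (9.26 CPM, others 12.03 to 12.36), for NR1D1 in cervical cord (34.1 CPM, others 38.7 to 39.4) and for DBP in cervical cord (24.7 CPM, others 14.1 to 15.3). Its mitochondrial share was 23.006% in cervical ganglia and 25.7% in cervical cord, the highest of 8 libraries in each, and their part was not tested. TEF in lumbar ganglia was high in treated animal 3 (73.0 CPM, others 58.6 to 60.7).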

How the results depend on the processing

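For the organ differences of the 10 genes, library totals turned more directions than any other alternative. With library totals in place of TMM, 2 of the 10 genes, ARNTL and CRY1, passed in lumbar ganglia against 0 with TMM. Over the 14267 genes tested there, 1843 passed with library totals against 612 with TMM, and the median of all genes moved by 0.19. Under library totals 4 in place of 7 genes had their highest organ mean in liver. Liver minus cord turned to -0.49 for PER3, -0.50 for CRY1 and -0.90 for TEF, liver minus ganglia to -0.51 for DBP and -0.64 for TEF, and ganglia minus cord to 0.091 for PER1, 0.016 for CRY2 and 0.017 for NR1D2. These ganglia minus cord values did not pass (limma adjusted p 0.554, 0.848 and 0.87). Ganglia minus cord also turned for PER1 to 0.052 without the 2 libraries that lack MOG and to 0.030 without control animal 1 (range -0.16 to 0.030 over each animal left out), and for CRY2 to 0.062 in control animals alone, where PER3 in liver minus cord missed the threshold at 0.23 (limma adjusted p 0.266). The share of variance between animals had a median of 40.1% for the 10 genes in cord alone without those 2 libraries, an alternative chosen after seeing the data.

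Of the values for single genes, 923 kept direction and side of the threshold and 11 turned in direction. Another 5 kept direction and passed only under the alternative, and 13 kept direction and passed only in the reported fit. For treated against control, leaving out each animal in turn, DESeq2, limma voom, median-ratio size factors, other filters and no sex term gave 0 calls among the 10 genes in each comparison. Counts over all genes moved far more: DESeq2 called 184, 93, 30, 7, 211, 1650 and 52 genes in liver, the cord levels, the ganglion levels and the cord sum, against 0, 0, 0, 0, 0, 612 and 0 in edgeR, and with library totals 1843 passed in lumbar ganglia and 0 in the joint ganglion fit, where 137 passed with TMM. Leaving out each animal gave 18 (without control animal 3) to 670 genes in lumbar ganglia and 3 (without control animal 2) to 963 (without treated animal 4) in the joint ganglion fit. Correlations of the deviations of same-numbered animals were over 0.1 in 2, 3, 3, 3, 0 and 1 of 4 pairs in liver, the cord levels and the ganglion levels, so no tissue met the limit of 0.1 in every pair and the numbers were not taken as pairs. All 4 were above 0 in liver (lowest 0.046) and in lumbar cord (lowest 0.089, mean 0.573 against -0.107 for other pairs). A fit with the replicate number as a block in place of sex called 0 of the 10 genes in every comparison, and 206 genes of the whole table in lumbar ganglia and 46 in the joint ganglion fit. Each treated sample correlated best with its own number in 3, 2, 2, 2, 0 and 1 of 4 cases in the 6 tissues, and each control sample in 4, 2, 2, 2, 0 and 1; the number also goes with sex. No cervical or thoracic library had under 1 CPM of MOG, so that alternative gave no value there. A fold change that missed the threshold is not shown to be absent, and this holds for large ones too.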
